A study of Mus musculus with 24 samples.

Results

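Cristae are the folds of the inner mitochondrial membrane, and the MICOS complex (mitochondrial contact site and cristae organising system) holds their necks open at the crista junctions. The 7 genes described here code for MICOS subunits and the proteins that work with them: Immt (Mic60) and Chchd3 (Mic19) and Chchd6 (Mic25) of the membrane-bending branch, the paralogs Apool (Mic27) and Apoo (Mic26) of the cardiolipin-binding branch, the inner membrane fusion GTPase Opa1, and Samm50, the outer membrane channel protein to which MICOS binds. The group was put together around Apool, which was selected on its measured differences between times of day in these hearts. The other 6 genes were added as its partners. Each of the 7 genes was matched to 1 array feature that carries its symbol alone, out of 22180 genes measured.

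The samples were myocardium of male mice of genotype Clock delta 19/delta 19, which carry on both alleles a mutant form of the circadian transcription factor CLOCK that does not activate its targets. All 24 mice carried it, were 8 weeks old and lived in a 12:12 light-dark environment. Wild-type hearts were not analysed here. Times are zeitgeber times (ZT), in hours after the lights came on, and 4 hearts came from each of 6 time points: ZT03, ZT07 and ZT11 (light phase), then ZT15, ZT19 and ZT23 (dark phase). Each value below is a difference on a log scale, taken as log2, from that gene's own median over the 24 arrays, so it shows how a gene moved and not how abundant it is.

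Cardiomyocytes are packed with mitochondria whose cristae carry the respiratory chain. MICOS joins the crista junctions to the outer membrane through Samm50 and the metaxins. OPA1 narrows the cristae and fuses inner membranes, and cardiolipin, the lipid of the inner membrane, is needed by both. If values were held in single precision before centring, the spacing of the deposited numbers separates features then above 8, 1.94% of all features, from those below. That storage was inferred from the spacing and is not stated in the sources used here. Of 7 cardiomyocyte markers, 6 were in the class above 8 (Myh6, Tnnt2, Actc1, Tnni3, Ryr2 and Pln, but not Myl2). So were 2 of 4 endothelial (Cdh5 and Kdr) and 1 of 4 fibroblast markers (Dcn). Of the smooth muscle (3), immune (4), skeletal muscle (4) and adipocyte (3) markers, 0 were in it. Among the members, Immt, Chchd3 and Opa1 were in the class above 8, and Apool, Apoo, Chchd6 and Samm50 were below it. Different probes respond differently to the same amount of RNA, so these classes do not rank genes or settle the tissue.

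The start regions of Apool, Apoo and Opa1 are shown because these members had the widest spans between time-point means, in a mouse whose mutation hits a factor that binds E-boxes. They are the 250 bases before the annotated start in RefSeq, build GRCm38.p6, all on the plus strand: chrX:112311102-112311351 for Apool, chrX:94366860-94367109 for the upstream one of 2 annotated starts of Apoo, and chr16:29579084-29579333 for Opa1. Capitals mark matches, on either strand, to the E-box CACGTG, to the core GCATGCGC of the motif of NRF1, a factor known for mitochondrial genes, and to the GC box GGGCGG.

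Apool: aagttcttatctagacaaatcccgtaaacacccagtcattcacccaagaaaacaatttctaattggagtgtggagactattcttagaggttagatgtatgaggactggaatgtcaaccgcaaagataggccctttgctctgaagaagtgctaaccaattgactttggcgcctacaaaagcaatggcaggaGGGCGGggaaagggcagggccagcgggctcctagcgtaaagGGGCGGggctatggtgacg

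Apoo: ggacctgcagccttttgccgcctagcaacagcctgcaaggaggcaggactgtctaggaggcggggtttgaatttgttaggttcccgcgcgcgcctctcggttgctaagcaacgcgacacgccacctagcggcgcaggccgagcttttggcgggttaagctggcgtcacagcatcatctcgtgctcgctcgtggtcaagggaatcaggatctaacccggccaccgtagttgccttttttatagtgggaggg

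Opa1: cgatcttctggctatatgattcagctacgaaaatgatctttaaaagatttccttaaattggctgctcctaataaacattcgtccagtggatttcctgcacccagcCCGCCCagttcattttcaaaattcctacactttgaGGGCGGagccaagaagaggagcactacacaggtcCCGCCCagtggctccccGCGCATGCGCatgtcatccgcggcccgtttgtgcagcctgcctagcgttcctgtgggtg

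The E-box was found in 0 of the 7 members' windows, and in 6.02% of the 32851 windows of the same length in the table. The NRF1 core was found in Opa1 alone of the members, where it starts 57 bases before the gene's start and matches on both strands with overlap. It was found in 2.26% of all windows. The GC box was found in Apool (2 matches), Opa1 (3) and Samm50 (1), and in 32.74% of all windows. A match or its absence describes the letters in these windows only.

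Apool, which codes for a cardiolipin-binding MICOS subunit of the inner membrane, was highest in the first hours of light and lowest at its end. Its values were 0.41, 0.38, 0.53 and 0.22 at ZT03, and 0.04, 0.24, 0.38 and 0.28 at ZT07. They were -0.23, -0.28, -0.22 and -0.15 at ZT11, the end of the light phase. All hearts of ZT03 and ZT07 lay above the median of the 24 arrays, and all hearts of ZT11 below it. In the dark, Apool was at -0.02, -0.13, -0.23 and 0.02 at ZT15, at 0.11, -0.21, 0.10 and 0.19 at ZT19, and at -0.39, -0.17, -0.04 and -0.09 at ZT23. At ZT19, 3 of 4 hearts lay above the median, with replicate 2 apart at -0.21. These values chose the gene, so what follows on its times of day, calls over all genes included, describes that choice and supports nothing.

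In the light phase the mean of Apool (± SD, n = 4) ran from 0.39 ± 0.13 at ZT03 through 0.23 ± 0.15 at ZT07 to -0.22 ± 0.06 at ZT11. In the dark phase it was -0.09 ± 0.12 at ZT15, 0.05 ± 0.18 at ZT19, then -0.17 ± 0.16 at ZT23. The span of 0.61 between the highest and lowest means, a fold of 1.53 if the base is 2, was 4.53 times the SD within time points. The median span of all genes was 0.12, and 99.7% of genes had a narrower span than Apool, as its selection for such differences fixed. Of the 15 pairs of time points, 7 did not overlap for Apool: ZT03 lay above ZT11, ZT15, ZT19 and ZT23, and ZT07 above ZT11, ZT15 and ZT23. As many pairs or more were free of overlap in 0.5% of all genes, with a median of 0, and this too was fixed by the selection. The steps from ZT03 to ZT07 and between neighbours in the order ZT07, ZT19, ZT15, ZT23, ZT11 overlapped.

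**Figure D1:**
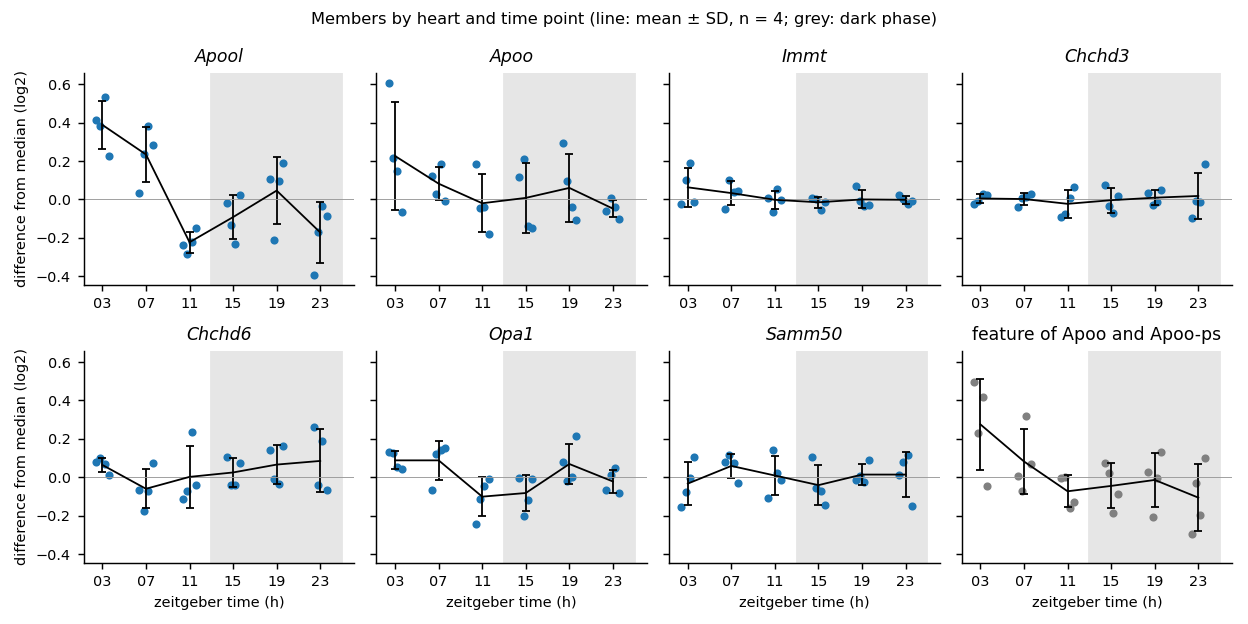
Each panel plots 1 gene (the last, a feature shared by Apoo and its pseudogene) against zeitgeber time in hours, as the difference from the gene's median over 24 arrays on a log2 scale. Points are hearts, lines and bars are means ± SD of 4 hearts, and grey marks the dark phase. Apool falls from 0.39 at ZT03 to -0.22 at ZT11, while the means of Chchd3 stay between -0.02 and 0.02.

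Apoo, the closest relative of Apool in the complex, ranked its time points in the same order as Apool over the 4 highest, but its hearts spread more. It was at 0.61, 0.21, 0.15 and -0.07 at ZT03, at 0.12, 0.03, 0.18 and -0.01 at ZT07, and at 0.19, -0.04, -0.04 and -0.18 at ZT11. One ZT03 heart, replicate 1, was far above all others, and replicate 4 lay below the median. In the dark Apoo was at 0.12, 0.21, -0.14 and -0.15 at ZT15, at 0.29, 0.09, -0.04 and -0.11 at ZT19, and at -0.06, 0.01, -0.04 and -0.10 at ZT23. No pair of time points was free of overlap.

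The mean of Apoo (± SD, n = 4) was highest at ZT03, 0.23 ± 0.28, and lowest at ZT23, -0.05 ± 0.05, and the difference between time points did not pass (adjusted p = 0.67 by the limma F test). ZT03 exceeded ZT11 by 0.25 ± 0.11 (SE, adjusted p = 0.32), and by 0.12 without ZT03 replicate 1. The SD of Apoo within time points, 0.17, was larger than in 94.8% of genes. By the replicate number of the labels, the mean deviation from the time-point mean was 0.16 for hearts numbered 1, 0.03 for 2, -0.04 for 3 and -0.15 for 4. The labels do not say what the numbers stand for, and their part in the result was not tested.

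A second feature is annotated to both Apoo and its pseudogene Apoo-ps, and was not counted as a member because the gene it measures cannot be told apart. It was at 0.49, 0.23, 0.42 and -0.04 at ZT03, against -0.01, 0.00, -0.16 and -0.13 at ZT11. Its highest mean was 0.28 ± 0.24 (ZT03, SD, n = 4) and its lowest -0.11 ± 0.18 (ZT23). ZT03 exceeded ZT11 by 0.35 ± 0.11 (SE), which did not pass over all 34351 features (adjusted p = 0.13 with limma). Over the 24 hearts this feature had r = 0.66 with the Apoo feature and r = 0.79 with Apool, while the Apoo feature had r = 0.45 with Apool. These correlations are descriptions over the same arrays.

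Opa1, the GTPase that fuses inner membranes and tightens cristae, had its higher means early in the light and at ZT19. It was at 0.13, 0.13, 0.05 and 0.04 at ZT03, at -0.06, 0.12, 0.14 and 0.15 at ZT07, and at -0.24, -0.11, -0.04 and -0.01 at ZT11. All 4 ZT03 hearts were above the median and all 4 ZT11 hearts below it. In the dark it was at -0.003, -0.20, -0.12 and -0.01 at ZT15, at 0.08, -0.02, 0.00 and 0.21 at ZT19, and at -0.07, 0.01, 0.05 and -0.08 at ZT23. ZT03 did not overlap with ZT11 or with ZT15, while ZT19 overlapped with every other time point.

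The mean of Opa1 (± SD, n = 4) was 0.09 ± 0.05 at ZT03, 0.09 ± 0.10 at ZT07 and 0.07 ± 0.11 at ZT19. It was lower at ZT11, -0.10 ± 0.10, and at ZT15, -0.08 ± 0.10. ZT03 exceeded ZT11 by 0.19 ± 0.06 (SE, 95% interval 0.06 to 0.32) and ZT15 by 0.17 ± 0.06 (0.04 to 0.30). Neither passed over all genes (adjusted p with limma 0.12 and 0.20). The limma F test gave Opa1 an adjusted p of 0.19, and 0.098 to 0.29 when single hearts were omitted.

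Immt, the core subunit that anchors MICOS in the inner membrane, varied little. Its hearts lay between -0.05 and 0.19 at ZT03 and ZT07 and between -0.06 and 0.07 at the other 4 time points. The highest were ZT03 replicate 3 at 0.19 and replicate 2 at 0.10, with the other ZT03 hearts at -0.02. Its mean was 0.06 ± 0.10 (SD, n = 4) at ZT03 and -0.02 ± 0.03 (SD) at ZT15, a difference of 0.08 (95% interval -0.01 to 0.16) that did not pass (adjusted p = 0.44 with limma). Without ZT03 replicate 3 it was 0.04.

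Chchd3, the peripheral subunit that links Mic60 to Samm50, had the flattest means of the members. They ran from -0.02 at ZT11 to 0.02 at ZT23, a span of 0.04 that was wider than in 9.6% of genes. Its hearts lay between -0.10 and 0.07 except ZT23 replicate 4 at 0.19. The 95% interval of the light minus dark difference was -0.07 to 0.04.

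Chchd6, the paralog of Chchd3, had its highest mean at ZT23 and its lowest at ZT07. ZT07 hearts were at -0.07, -0.18, -0.07 and 0.07, and ZT23 hearts at 0.26, -0.04, 0.19 and -0.07, so the groups overlapped. The means were -0.06 ± 0.10 (SD, n = 4) and 0.09 ± 0.16 (SD). The adjusted p of the F test was 0.82 with limma.

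Samm50, the channel protein of the outer membrane, was between -0.16 and 0.14 in all 24 hearts, with its highest mean at ZT07 (0.06 ± 0.06, SD, n = 4) and its lowest at ZT15 (-0.04 ± 0.11). Its ZT03 minus ZT11 difference was -0.04 (95% interval -0.18 to 0.09), and it did not pass the F test (adjusted p = 0.91 with limma).

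At an adjusted p under 0.05, the F test for any difference among the 6 time points called 1 of the 7 members, Apool, and 1.48% of all genes. Since Apool was chosen on this test, nothing is read from the count. Of the other 6 members 0 passed with limma, and 1 of them, Opa1, had an unadjusted p under 0.05 (rank 1226 of 22180 genes). ZT03 against ZT11 and ZT03 against ZT15 share the ZT03 hearts. In ZT03 minus ZT11 the percent of all genes that passed was 2.29, and 0 of the other 6 members passed. Apoo and Opa1 were at an unadjusted p under 0.05, at ranks 2970 and 1063 of 22180 genes. In ZT03 minus ZT15 1.08% of all genes passed, and again 0 of the other 6 did. Opa1 was at an unadjusted p under 0.05, at rank 1258. With so many genes at such values, nothing is read from these unadjusted p-values. All 4 ZT03 hearts lay above all 4 ZT11 hearts in Apool and Opa1, as in 4.62% of all genes, and the same 2 members and again 4.62% of genes were found for ZT03 above ZT15.

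For the light phase against the dark phase, 0.379% of all genes passed with limma and 0 of 7 members did, and 0 of the 6 members other than Apool had an unadjusted p under 0.05. The difference was 0.21 ± 0.05 (SE) for Apool, whose light-phase mean joins the high ZT03 and ZT07 hearts with the low ZT11 hearts. For the others it ran from -0.06 ± 0.05 (SE) for Chchd6 to 0.09 ± 0.07 (SE) for Apoo, which was 0.047 without ZT03 replicate 1. A cosine of period 24 h passed in 0.0631% of all genes and in 0 of 7 members, and 0 of the 6 other than Apool had an unadjusted p under 0.05. Its fitted amplitude, the distance from mean to peak, was 0.20 ± 0.06 (SE) for Apool with a peak at ZT3.7, 0.07 ± 0.05 (SE) for Apoo with a peak at ZT3.8 (0.029 without ZT03 replicate 1), and 0.08 ± 0.03 (SE) for Opa1 with a peak at ZT2.1. Only 1 cycle was sampled, so the fit describes a profile and not a repeating rhythm.

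**Figure D2:**
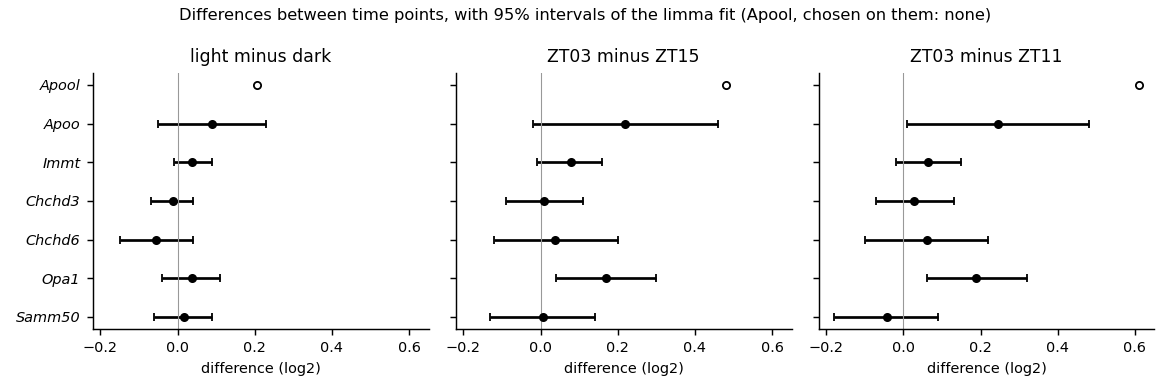
For each member the points give a difference on the log2 scale between groups of hearts, with the 95% interval of the limma fit for all but Apool (open point), for light minus dark (12 hearts each), ZT03 minus ZT15 and ZT03 minus ZT11 (4 hearts each). Apool lies farthest from 0 in each panel, at 0.21, 0.48 and 0.61, and it was chosen for such differences, while the intervals of Immt, Chchd3, Chchd6 and Samm50 include 0 in all panels.

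How hearts of the same time point differed does not use the differences between times from which Apool was chosen, so it was tested. Each heart's deviation from its time-point mean was compared between members, over 24 hearts and 21 pairs, with a two-sided permutation test within time points. Hearts with more Apool also had more Opa1 (r = 0.62, p = 0.0033, rho = 0.63, p = 0.0038) and more Chchd3 (r = 0.57, p = 0.0059, rho = 0.68, p = 0.00064). Adjusted over the 21 pairs, the permutation p was 0.062 for each by r and 0.040 and 0.013 by rho, so the call rests on the measure. Without the 2 hearts farthest out in Apool, r was 0.60 for Opa1 and 0.47 for Chchd3. By r, 0 of 21 pairs passed, and 3 had an unadjusted permutation p under 0.05. By rho 2 did pass.

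Apool and the Apoo feature of 1 symbol, in contrast, had r = 0.04 (permutation p = 0.88, rho = -0.15) within time points. The feature shared by Apoo and Apoo-ps had r = 0.66 with Apool within time points, and 0.49 with the Apoo feature. The value for Apoo thus depends on the feature read, and the shared feature was not tested. Apool and Immt had r = 0.35 (p = 0.13, rho = 0.19, permutation test). For Samm50 the r with Apool was -0.09 and for Chchd6 it was 0.13. Whether these values differ from those of Opa1 and Chchd3 was not tested. Arrays share components across many genes: over all 22179 other genes the r with Apool within time points ran from -0.83 to 0.86, with 5% of genes above 0.43, and 0.92% of genes were at or above the value of Opa1 and 1.47% at or above that of Chchd3.

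**Figure D3:**
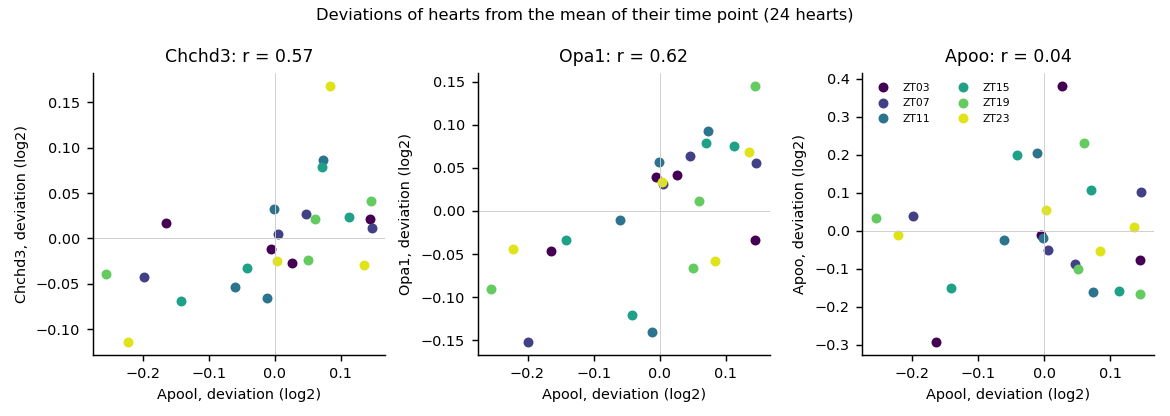
Each point is 1 of 24 hearts, placed by its deviation from the mean of its time point in Apool (x, log2) and in Chchd3, Opa1 or Apoo (y, log2), coloured by time point. Hearts spread along a rising diagonal for Chchd3 (r = 0.57) and Opa1 (r = 0.62) and show none for the Apoo feature of 1 symbol (r = 0.04).

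The genes whose values over all 24 hearts were most like those of Apool included mitochondrial ones that are not part of MICOS. The highest Pearson r was that of Dld (0.95), the dehydrogenase subunit shared by the pyruvate and oxoglutarate dehydrogenase complexes, followed by Ppp6c (0.93), a protein phosphatase subunit, Cript (0.93), Mtch2 (0.93), a carrier-like protein of the outer mitochondrial membrane, and Mr1 (0.92), an MHC class I-like gene. Dld went from 0.14 at ZT03 to -0.12 at ZT11, and Mtch2 from 0.27 to -0.27, means of 4 hearts. Within time points the r with Apool was 0.82 for Dld and 0.83 for Mtch2. The r over 24 hearts that picked these genes holds the same deviations, so the choice favoured high values here. It also holds the differences between times on which Apool was chosen. By r over all 24 hearts Opa1 came at rank 259 of 22179 genes (r = 0.75), Immt at 1339 (0.52), Apoo at 1916 (0.45) and Chchd3 at 3238 (0.32).

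The arrays' main axis of variation also differed between time points. The first principal component over genes held 16.4% of the variance, and its r was 0.77 with Apool and with Opa1, where 5% of genes exceeded 0.63. In units of its SD it was 1.23 on average at ZT03 (0.87 to 1.38) and -0.84 at ZT11 (-2.47 to 0.58), the lowest being ZT11 replicate 1, the array that limma weighted least. Within time points its r was 0.23 with Apool, 0.57 with Opa1 and 0.28 with Chchd3, where 5% of genes lay below -0.49 and 5% above 0.58. Its part in these results was not tested. Of the cell type markers, 0 of 4 endothelial, 3 smooth muscle, 4 immune, 4 skeletal muscle and 3 adipocyte genes passed in ZT03 minus ZT11 with limma. In the same contrast 1 of 4 fibroblast genes was higher at ZT03 (Dcn, 0.28 ± 0.07, SE) and 1 of 7 cardiomyocyte genes lower (Tnni3, -0.23 ± 0.06, SE). In ZT03 minus ZT15, which shares the ZT03 hearts, Dcn alone of the markers passed (0.3 ± 0.07, SE, adjusted p = 0.047 with limma). The mean of the fibroblast list was 0.11 at ZT03 and -0.01 at ZT11, that of the cardiomyocyte list -0.03 and 0.02. Of the 4 red blood cell genes listed, 0 had a feature of their own. In whole tissue, fewer cells of a type and less RNA per cell cannot be told apart, and the part of cell makeup in the results was not tested.

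Genes that act with MICOS were followed in 6 lists of 36 measured genes. The lists were chosen with earlier results of these data known, so their counts beside those of all genes cannot show an enrichment. The F test called 4 of the 36, against 1.48% of all genes. In ZT03 minus ZT11 5 passed (4 higher, 1 lower at ZT03), against 2.29% of all genes, of which 407 were higher and 100 lower. In ZT03 minus ZT15 3 passed, all higher, against 1.08% of all genes, of which 195 were higher and 44 lower. These contrasts share the ZT03 hearts. In ZT03 minus ZT15 the calls were lost without any 1 of 7 hearts for Lclat1 and for Dnm1l, and without ZT03 replicate 3 for Crls1. In the light against the dark phase 1 passed (0.379% of all genes), and in the 24 h test 0 did with limma, with 9 at an unadjusted p under 0.05. In that test an unadjusted limma p of 0.051, that of Opa1, stood at rank 2464 of 22180 genes. Nothing is read from the 9. The 6 genes that passed at least 1 test were Crls1, Lclat1, Dnm1l, Yme1l1, Atp5md and Atp5k. Only 2 of the 36 genes were listed as MICOS subunits, so their absence among the 6 says little.

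Of the 7 measured genes of cardiolipin synthesis and remodelling, Crls1 and Lclat1 passed the F test. Crls1, the cardiolipin synthase, had a mean (± SD, n = 4) of 0.39 ± 0.10 at ZT03 against -0.08 ± 0.15 at ZT11. The difference was 0.46 ± 0.08 (SE, adjusted p = 0.0065 with limma), and it passed whichever heart was omitted. Its F test missed the threshold without ZT03 replicate 1, 2 or 3 (adjusted p up to 0.079). Lclat1, an acyltransferase that remodels cardiolipin, had means (± SD, n = 4) of 0.30 ± 0.06 at ZT03 and 0.29 ± 0.04 at ZT07, and means between -0.14 and -0.07 at the other time points. It was the gene that passed in the light phase (0.28 ± 0.06, SE, adjusted p = 0.032 with limma), but it missed the threshold when any 1 of 13 hearts was left out. Its F test missed without ZT03 replicate 2, ZT03 replicate 3 or ZT07 replicate 3 (adjusted p with limma up to 0.064). The list's median ZT03 minus ZT11 difference was -0.015, against -0.005 over all genes, since 4 of the 7 were below 0.

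Of the 10 genes of outer membrane fusion and fission, Dnm1l, the GTPase that divides mitochondria, passed alone. Its mean (± SD, n = 4) was 0.20 ± 0.08 at ZT03 and -0.09 ± 0.10 at ZT11, a difference of 0.29 ± 0.06 (SE, adjusted p = 0.0099 with limma) that passed whichever heart was omitted. The F test of Dnm1l was lost without any 1 of 16 hearts (adjusted p with limma up to 0.12). The mitofusin genes did not pass: ZT03 minus ZT11 was 0.13 ± 0.05 (SE) for Mfn1 and -0.24 ± 0.11 (SE) for Mfn2.

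Among the 7 measured proteases and scaffolds around OPA1, Yme1l1, a protease that cleaves OPA1, passed in ZT03 minus ZT11 (0.27 ± 0.06, SE, adjusted p = 0.024 with limma), and missed the threshold when any 1 of 4 hearts was left out: ZT03 replicate 1, 2 or 3 or ZT11 replicate 1 (adjusted p up to 0.095). Its mean (± SD, n = 4) was 0.12 ± 0.05 at ZT03 and -0.14 ± 0.09 at ZT11. Oma1, the stress-activated protease of OPA1, differed by 0.16 ± 0.08 (SE) and did not pass.

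The ATP synthase dimer shapes the crista rims. Of the 5 measured genes for subunits of the dimer and the inhibitor (Atpif1), 2 passed in ZT03 minus ZT11. Atp5md was higher at ZT03 than at ZT11 (0.24 ± 0.06, SE, adjusted p = 0.031 with limma) and Atp5k lower (-0.31 ± 0.08, SE, adjusted p = 0.047). The calls were lost when any 1 of 6 hearts was left out for Atp5md and any 1 of 18 for Atp5k. The F test of Atp5md was also lost without any 1 of 18 hearts (adjusted p with limma up to 0.17). The others differed by 0.32 ± 0.11 (SE) for Atp5l, 0.00 for Atp5j2 and -0.04 ± 0.06 (SE) for Atpif1, and did not pass. In the lists of the outer membrane bridge (5 measured) and of other MICOS subunits (2 measured) 0 genes passed in any of the 5 tests with limma. In ZT03 minus ZT11 the bridge had 1 gene at an unadjusted p under 0.05, the metaxin gene Mtx2 (0.32 ± 0.10, SE, adjusted p = 0.093), and the MICOS subunits had 0. Mtx2 was at an unadjusted p under 0.05 in each of the 5 tests, but passed none (adjusted p with limma 0.085 to 0.42). The 5 tests share the same hearts, so nothing is read from this recurrence. In ZT03 minus ZT15 the MICOS subunits had 1 such gene, Micos13 (0.15 ± 0.07, SE, adjusted p = 0.38 with limma). The remaining MICOS subunits were at 0.04 ± 0.06 (SD, n = 4) for Micos10 and 0.10 ± 0.11 (SD) for Micos13 at ZT03, and at -0.02 ± 0.06 and 0.03 ± 0.11 at ZT11.

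**Figure D4:**
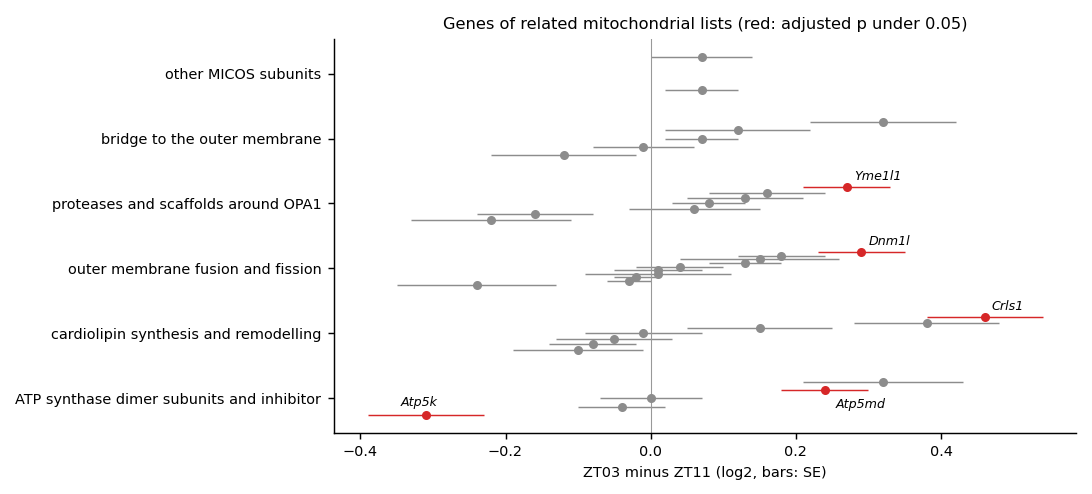
Points give the ZT03 minus ZT11 difference on the log2 scale for each measured gene of the 6 related lists, with the SE of the limma fit, and red marks the 5 genes that passed over all genes. Crls1 lies farthest to the right at 0.46, Atp5k farthest to the left at -0.31, and neither of the 2 other MICOS subunits is marked.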

How the data were processed

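RNA of 24 hearts was measured on 1-colour Affymetrix arrays from biotin-labelled cRNA, per the labels' protocols. The deposited values are log values, taken as log2, that the authors had centred on each feature's median (from the values: largest absolute median 5e-07). The sources used here do not give summarization, normalization, log base or filters. With a natural log, differences called log2 would be larger by 1 fixed factor, and p-values the same. Signal over background is unknown, and the number of arrays limits precision.

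Of 34351 features, 23521 had 1 gene symbol in the platform annotation; 1814 had several and 9016 none and were not used for named genes. Features of a gene were averaged, giving 22180 genes, all tested without a filter with limma 3.58.1 in R 4.3.3 (Benjamini-Hochberg over all genes, threshold 0.05). The fits were checked on simulated data. The members, gene lists and tests were chosen with earlier results of these data known. All 7 members were named, with the 5 genes of highest r with Apool, and of each list the genes that passed a test or had the smallest p; Micos10, Mfn1, Mfn2, Oma1, Atp5l, Atp5j2, Atpif1, Dcn and Tnni3 were named after their values were seen. The labels call hearts biological replicates. Correlations used 100000 permutations. Symbols matched a RefSeq Entrez gene (GRCm38.p6) for 23328 features.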

Additional observations from a re-analysis of the deposited data

Results flagged for a closer look

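Opa1 in ZT07 replicate 1 was at -0.06, far from the other ZT07 hearts, which lay between 0.12 and 0.15. The gap was 0.85 of the group's range, above Dixon's 95% limit for 4 samples. This was 1 of 42 groups of 4 hearts examined, where chance gives about 1 in 20. Without this heart the F test of Opa1 gave an adjusted p of 0.098 with limma.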

How the results depend on the processing

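With each heart left out in turn, 0 of the 6 members other than Apool passed the F test with limma, and 1 of them, Opa1, had an unadjusted p under 0.05 with all hearts. In ZT03 minus ZT15 the members called numbered 0 to 1: Apool missed without ZT03 replicate 3 or ZT15 replicate 3, with a difference of 0.43 in each. Over all genes the counts ranged from 28 to 467 in the F test, 3 to 45 in the 24 h test, 51 to 183 in light minus dark, 25 to 326 in ZT03 minus ZT15 and 190 to 747 in ZT03 minus ZT11; the lowest came without ZT03 replicate 3, and in the 24 h test equally without ZT03 replicate 1 or ZT11 replicate 2. Signs turned where values were near 0: light minus dark was -0.026 to 0.0055 for Chchd3 and -0.0025 to 0.032 for Samm50, ZT03 minus ZT15 -0.015 to 0.034 for Chchd3 and -0.039 to 0.057 for Samm50, and ZT03 minus ZT11 -0.089 to 0.00087 for Samm50. Within time points, r with Apool was -0.14 to 0.12 for Apoo and -0.19 to 0.04 for Samm50. By r, 0 to 3 pairs passed: Apool with Opa1 without ZT03 replicate 1, ZT03 replicate 3 or ZT23 replicate 4, Apool with Chchd3 without ZT03 replicate 1, ZT23 replicate 3 or ZT23 replicate 4, and 1 pair without Apool when ZT23 replicate 4 was omitted.

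With the replicate block the F test called 218 genes in place of 329, and it changed no call of a named gene. The numbers were not taken to pair hearts. The median r of deviations was 0.0 in same-numbered pairs and -0.0 in pairs of different numbers. Of 60 same-numbered pairs, 10 had r above 0.1, and 9 of 24 hearts correlated best with a heart of their own number. The counts expected by chance were not worked out, so these counts do not decide whether the numbers pair hearts. Quantile normalization gave 33 genes in the 24 h test and 144 in light minus dark, and Samm50 at -0.017 in ZT03 minus ZT15. Array weights gave 514 genes in the F test, 45 in the 24 h test and 430 in ZT03 minus ZT15, with Samm50 at -0.0073. Tested per feature, 3 passed the 24 h test. With 12 h terms beside, 74 genes passed, 1 of them a member, Apool. Without the 2 arrays of lowest weight, chosen after seeing the data, 365 genes passed in ZT03 minus ZT15 and 222 in ZT03 minus ZT11. Of the related genes, Atp5md missed the F test under quantile normalization (adjusted p = 0.063 with limma) and robust eBayes (0.052), Lclat1 missed ZT03 minus ZT15 under quantile normalization (0.053), and Atp5k missed ZT03 minus ZT11 under array weights (0.057) and robust eBayes (0.051). Without those 2 arrays (ZT11 replicate 1 and ZT19 replicate 1) Dnm1l (0.069) and Atp5md (0.067) missed the F test, and in ZT03 minus ZT11 Yme1l1 (0.089), Atp5k (0.15), Dnm1l and Atp5md (both 0.050) missed. The cause of these changes was not tested.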
